A study of Mus musculus with 468 samples.

Results

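Krueppel-like factors (KLFs) are transcription factors that bind GC-rich and CACCC sequences of DNA through zinc fingers, and 9 of them were followed here in mouse fat: Klf2, Klf3, Klf4, Klf5, Klf6, Klf9, Klf10, Klf11 and Klf15. They were chosen by gene symbol in the platform annotation, which gave 15 of the 43681 probe sets on the array and 9 of the 21931 named genes. Each gene was read by its probe set of highest mean log2 intensity, and all 9 were measured on every array.

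Several of these factors are known for opposed roles in fat cell formation. Klf4, Klf5, Klf6, Klf9 and Klf15 are known to promote adipogenesis in cultured preadipocytes, while Klf2 and Klf3 are known to restrain it. Outside adipocytes, Klf2 and Klf4 are induced by blood flow in endothelial cells, Klf6 and Klf10 respond quickly to growth factors, Klf9 and Klf15 are direct targets of the glucocorticoid receptor, and Klf15 drives genes of amino acid breakdown.

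Male mice of 8 weeks were studied in 3 models. WT-chow and WT-HFD mice were C57BL/6 animals fed chow or a diet high in fat. The db/db-chow mice lack a working leptin receptor, were of the C57BLKS/J strain and ate chow. They were injected under the skin over 2 d or 5 d with saline vehicle or with native FGF21 protein (WT FGF21, BID, 1.25 mg/kg), and further groups with a long-acting pegylated form (PEG30-FGF21 Q108, BIW, 0.75 or 2.5 mg/kg). Inguinal (IWAT, 120 arrays), epididymal (EWAT, 115), retroperitoneal (RPWAT, 114) and brown fat (BAT, 119) gave 96 groups of 3 to 5 arrays. Mice on vehicle and on WT FGF21 had tissue collected about 6 h after their final injection and those on PEG30-FGF21 Q108 about 30 h after, so for the pegylated protein the treatment and the hours since injection cannot be told apart. Each treated group was compared with vehicle mice of its own model. Where changes are set between models, the db/db mice differ from the C57BL/6 mice in strain as well as in genotype.

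The depot labels were checked on marker genes in vehicle arrays. Ucp1, the uncoupling protein of brown fat, had log2 intensities of 13.0 to 13.9 in BAT, with medians of 8.47 in IWAT, 4.75 in EWAT and 10.3 in RPWAT. Adipoq, the adipocyte hormone adiponectin, lay between 12.2 and 13.6 in all 4 depots. Precision is set by the 3 to 5 arrays of a group. In IWAT 2 arrays stood apart from the rest of their groups, namely replicate 2 of db/db-chow vehicle at 2 d and replicate 3 of WT-HFD mice on WT FGF21 at 5 d.

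The upstream sequences of 5 members are shown because their genes carry most of the changes described here. The RefSeq promoter table (GRCm38.p6) gave a sequence for 7 of the 9 members, all but Klf5 and Klf10. Each line runs 5′ to 3′ on the strand of the gene and ends at the base before the start used by the RefSeq promoter table, which for Klf15 lies within the annotated gene (chromosome 6, 90461043 to 90491803). Capitals mark matches to only 1 motif per gene, which is the MEF2 consensus in Klf2, the E-box CACGTG in Klf4, Klf6 and Klf15, and the half-site of the cAMP response element, TGACG, in Klf9.
Klf2, chr8:72318892-72319061 (+ strand): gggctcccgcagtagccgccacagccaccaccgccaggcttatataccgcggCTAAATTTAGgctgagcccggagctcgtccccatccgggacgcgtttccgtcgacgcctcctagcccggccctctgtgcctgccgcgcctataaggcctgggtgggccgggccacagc
Klf4, chr4:55532476-55532675 (- strand): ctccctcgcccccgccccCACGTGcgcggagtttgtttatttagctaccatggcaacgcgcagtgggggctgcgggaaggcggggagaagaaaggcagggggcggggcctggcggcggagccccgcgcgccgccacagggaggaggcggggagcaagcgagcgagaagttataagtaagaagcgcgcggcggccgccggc
Klf6, chr13:5861339-5861488 (+ strand): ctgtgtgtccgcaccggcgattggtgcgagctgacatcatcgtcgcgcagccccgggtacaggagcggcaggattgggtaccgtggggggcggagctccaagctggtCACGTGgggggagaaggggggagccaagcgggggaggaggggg
Klf9, chr19:23141106-23141225 (+ strand): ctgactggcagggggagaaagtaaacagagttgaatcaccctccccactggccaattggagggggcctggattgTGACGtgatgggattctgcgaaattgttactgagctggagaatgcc
Klf15, chr6:90462326-90462575 (+ strand): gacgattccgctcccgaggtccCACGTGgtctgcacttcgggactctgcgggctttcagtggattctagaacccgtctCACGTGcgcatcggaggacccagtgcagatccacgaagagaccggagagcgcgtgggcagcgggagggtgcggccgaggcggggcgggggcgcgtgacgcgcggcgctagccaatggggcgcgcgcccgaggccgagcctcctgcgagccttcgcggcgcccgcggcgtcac

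The motifs were chosen after the values had been seen and were searched on both strands of the 250 bases before the start. CACGTG occurred once in each of Klf4, Klf6 and Klf11 and at 2 places in Klf15, against 6.02% of 32851 promoters of the same length. TGACG occurred once in each of Klf2, Klf4 and Klf9 and at 2 places in Klf15, against 17.8% of all promoters, and the MEF2 consensus, matched by Klf2, was in 2.92%. The glucocorticoid response element palindrome was found in none of the 7 windows and in 0.00913% of all promoters, so this length of sequence can hardly show it. These matches describe letters in a window and say nothing of binding.

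In the whole series, 85 of 648 comparisons of a member with vehicle of the same depot, model and day passed an adjusted p of 0.05 (limma, Benjamini-Hochberg over all probe sets of a comparison), and 182 had an unadjusted p under 0.05. BAT held 59 of the 85, with 20 higher and 39 lower among 162 comparisons. The members were called in 36.4% of BAT comparisons, while 9.82% of all probe sets were called there (4.71% higher and 5.11% lower). In white fat 21 comparisons were higher and 5 lower of 486, which is 5.35% for the members and 2.55% for all probe sets. By depot the background was 3.32% in IWAT, 2.00% in EWAT and 2.32% in RPWAT, and the members were called in 3 of 162 comparisons in IWAT, 7 in EWAT and 16 in RPWAT. The IWAT count was 8 without the 2 arrays that stood apart, the added calls being of Klf9 with WT FGF21 at 5 d in WT-chow (0.64, adjusted p = 0.037) and WT-HFD mice (0.60, adjusted p = 0.027), of Klf3 with WT FGF21 at 5 d in db/db-chow mice (-0.32, adjusted p = 0.0041), and 1 each of Klf2 and Klf4.

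**Figure D1:**
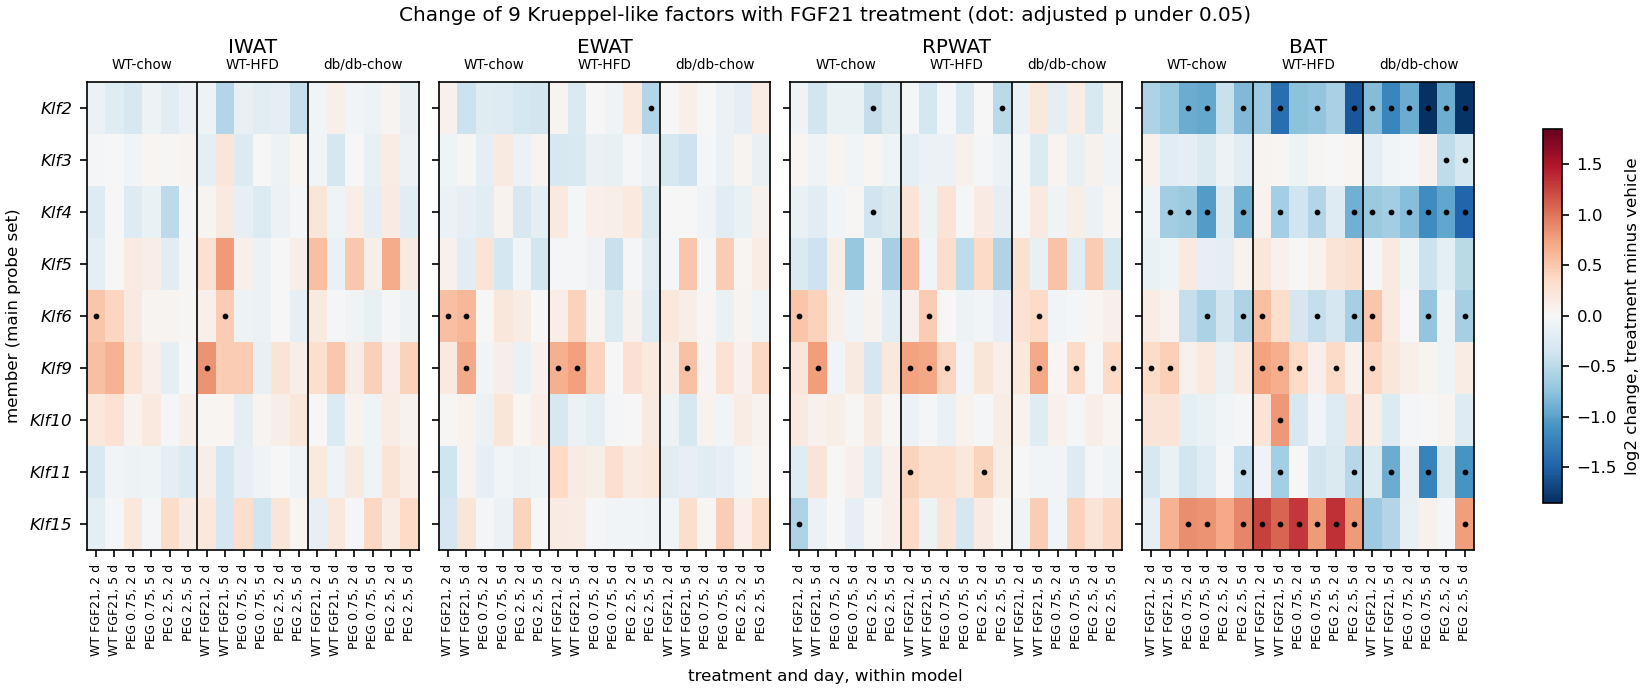
Heat map of the log2 change against vehicle (color scale) for the 9 KLF genes (lines of the map) in the 18 treatment comparisons of each depot (columns), with a dot where the adjusted p passed 0.05. Klf2 and Klf4 are lower over most of BAT. Klf15 is called higher in BAT in all 6 comparisons of WT-HFD mice but in 1 of 6 of db/db-chow mice. Klf9 changes with WT FGF21 lie above 0 in all 4 depots, with 1 called in IWAT.

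The 9 genes did not move as a block. In BAT Klf2 was lower in 12 of 18 comparisons, Klf4 in 13 and Klf11 in 6, and none of these 3 genes was higher in any. Klf15 was higher in 10 of 18 and Klf9 in 7. Klf6 was called in both directions, with 2 higher and 6 lower. In white fat only Klf9 (12 of 54) and Klf6 (7 of 54) were called more than 3 times, all of them higher. Klf3 was lower in 2 BAT comparisons, Klf10 was higher in 1, and Klf5 passed the test in none of 72.

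Levels under vehicle were compared across depots gene by gene, as a description with no test, because the array medians differ between depots (from 11.2 to 62.0 intensity units). The percentile of each gene among all probe sets of the same array is given beside log2 where the 2 scales put the depots in different orders. On the log2 scale all 9 genes were highest in IWAT of WT-chow mice, and 0 of 9 were higher in BAT than in IWAT. That order depends on the scale, since 3 of 9 were higher in BAT after quantile normalization across all arrays and 6 of 9 as the distance above the array median.

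**Figure D2:**
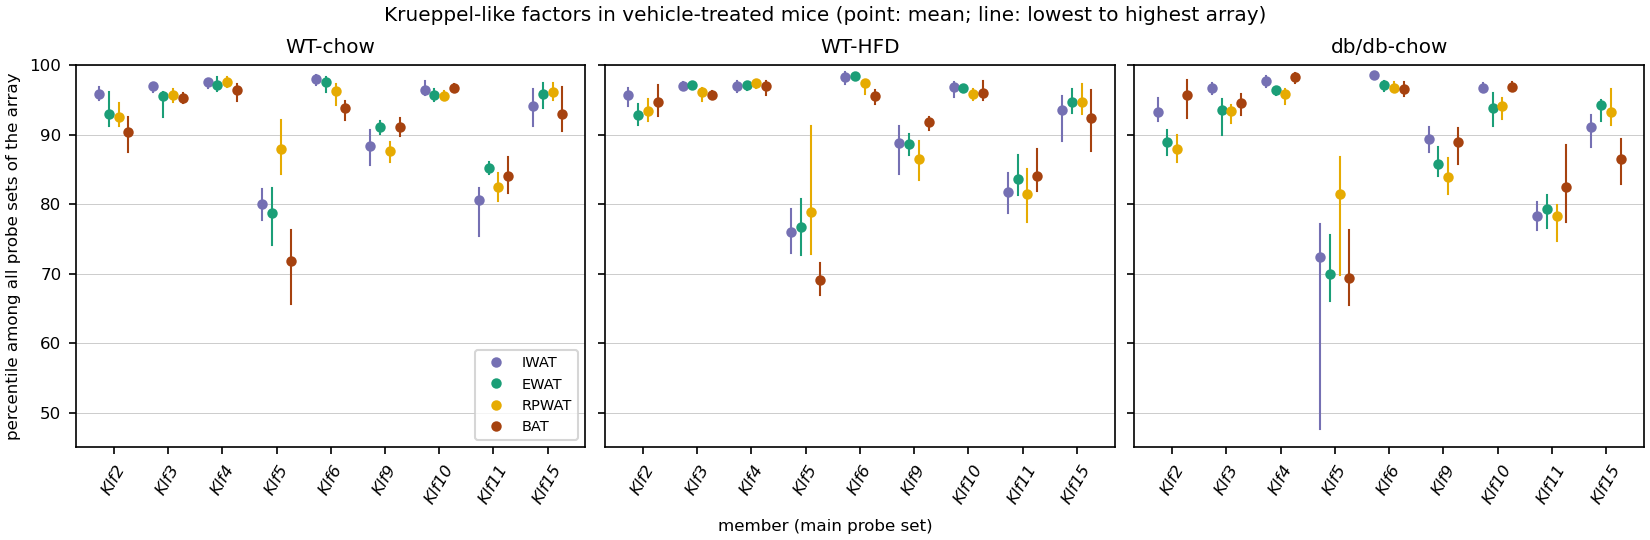
Percentile of each KLF gene among all probe sets of its array in vehicle mice, by depot and model, with points at the mean and bars from the lowest to the highest array. Each gene is to be read across depots only; Klf5 has its highest mean in RPWAT in all 3 models.

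Klf5, a promoter of adipogenesis that acts early in the program, differed most between depots. In WT-chow mice its log2 level was 8.93 ± 0.17 (SD, n = 10) in IWAT, 8.79 ± 0.41 (n = 8) in RPWAT, 7.22 ± 0.28 (n = 10) in EWAT and 5.90 ± 0.41 (n = 10) in BAT. On that scale IWAT and RPWAT overlapped, whereas EWAT lay below every array of both and BAT below every array of EWAT. By percentile in these mice RPWAT (87.9) lay above every array of IWAT (80.0). There EWAT (78.7) overlapped IWAT, and BAT (71.8) overlapped EWAT. Its percentile was highest in RPWAT in all 3 models, at 87.9 in WT-chow, 78.9 in WT-HFD and 81.4 in db/db-chow mice. In db/db-chow IWAT the standing-apart array read 5.71 and the other arrays of its group 8.28 to 8.62.

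Klf2 and Klf4 had a different pattern in db/db-chow mice. Klf2 was at percentile 95.8 in BAT of that model, above 93.2 in IWAT, 88.9 in EWAT and 87.9 in RPWAT. Klf4 was at percentile 98.3 in BAT, above 97.7 in IWAT, 96.4 in EWAT and 95.9 in RPWAT. On the log2 scale IWAT was higher than BAT for both genes, at 10.78 ± 0.42 against 10.31 ± 0.49 for Klf2 and 11.95 ± 0.28 against 11.22 ± 0.25 for Klf4 (n = 10). For both genes BAT overlapped IWAT and lay above every array of EWAT and RPWAT. In WT-chow mice BAT was instead the lowest depot for Klf2 (8.63 ± 0.32 against 11.26 ± 0.15 in IWAT) and for Klf4 (10.13 ± 0.25 against 11.75 ± 0.15), all as log2 with n = 10. It overlapped EWAT for both genes. By percentile BAT was lowest too, but overlapped the next depot for both. The order changed as distance above the array median, where Klf4 was highest in BAT (6.59, against 5.83 in IWAT, 5.59 in EWAT and 5.98 in RPWAT). On that scale Klf2 in BAT (5.09) lay below IWAT (5.34) but above EWAT (4.54) and RPWAT (4.72).

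Klf6 had its lowest mean in BAT in all 3 models by both scales, though on log2 BAT overlapped RPWAT in WT-HFD mice and both RPWAT and EWAT in db/db-chow mice. In WT-chow mice its log2 level was 9.36 ± 0.20 in BAT and 11.92 ± 0.19 in IWAT, which did not overlap, with percentiles of 93.8 and 98.0. As distance above the array median Klf6 was not lowest in BAT of WT-chow mice (5.82, against 5.57 in RPWAT) or db/db-chow mice (6.27, against 6.07 in RPWAT). Klf15 had its lowest mean in BAT too by log2 and by percentile, at percentile 93.0 in WT-chow, 92.5 in WT-HFD and 86.6 in db/db-chow mice. In WT-chow and WT-HFD mice BAT overlapped IWAT by percentile. As distance above the array median Klf15 was instead highest in BAT of WT-chow mice (5.66, against 4.99 in IWAT, 5.17 in EWAT and 5.53 in RPWAT). On that scale BAT of WT-HFD mice (5.26) lay above IWAT (4.79), and BAT of db/db-chow mice (4.25) was lowest. On log2 in db/db-chow mice every BAT array (8.50 ± 0.30) lay below every array of RPWAT (9.83 ± 0.30), EWAT (10.01 ± 0.16) and IWAT (10.41 ± 0.33). By percentile BAT lay below every array of EWAT (94.2) and RPWAT (93.2) but overlapped IWAT (91.1). Klf9 had its highest percentile in BAT of WT-HFD mice (91.8, against 88.8 in IWAT), where those depots overlapped. Klf3, a repressor that recruits CtBP proteins, stayed between percentiles 93.4 and 97.2 in the 12 sets of arrays. Klf10 stayed between 93.8 and 96.9, and Klf11 between 78.3 and 85.3.

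Klf9 rose in fat of mice on WT FGF21. The gene was higher in 9 of 18 white fat comparisons of WT FGF21, with a median log2 change of 0.60 and all 18 above 0, and in 5 of 6 in BAT, with a median of 0.41. Over all probe sets, 1.88% were called higher with WT FGF21 in white fat and 3.98% in BAT. In IWAT of WT-HFD mice at 2 d the vehicle arrays read log2 9.24, 9.63, 9.62, 9.81 and 9.87, and the WT FGF21 arrays 10.64, 10.38, 10.72, 10.21 and 10.42. Every treated array lay above every vehicle array. The change was 0.84 (SE 0.18, limma adjusted p = 0.0089, 1.79-fold), and it was not called without replicate 1.

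The rise of Klf9 was seen in the visceral white depots as well. In EWAT of WT-HFD mice at 5 d the 3 vehicle arrays read 9.68, 9.66 and 9.79 and the WT FGF21 arrays 10.50, 10.32, 10.48, 10.60 and 10.42. The groups did not overlap, and the change was 0.75 (SE 0.13, adjusted p = 1.5e-05). In RPWAT of WT-HFD mice at 5 d vehicle arrays read 9.31, 9.54, 9.16, 9.35 and 9.54, and treated arrays 10.17, 9.92, 10.12, 10.17 and 10.08, a change of 0.71 (SE 0.11, adjusted p = 1.1e-06). In db/db-chow RPWAT at 5 d vehicle arrays read 8.12, 8.08, 8.22, 8.35 and 8.78, and treated arrays 9.17, 8.86, 9.01, 9.13 and 8.89. The highest vehicle array came close to the treated ones without reaching them, and the change was 0.70 (SE 0.11, adjusted p = 2.2e-06).

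With PEG30-FGF21 Q108, Klf9 was called higher in 3 of 36 white fat comparisons (median 0.12) and 2 of 12 in BAT. Those backgrounds were 1.53% and 5.08% of probe sets. In db/db-chow RPWAT at 5 d the arrays at 2.5 mg/kg read 8.58, 8.61, 8.83, 8.84 and 8.49, which overlapped the vehicle arrays, for a change of 0.36 (SE 0.11, adjusted p = 0.043) that was lost without any 1 of replicates 1 to 4. In BAT of WT-HFD mice at 2 d vehicle arrays read 9.79, 9.89, 9.80, 10.07 and 9.98, and WT FGF21 arrays 10.87, 10.72, 10.73, 10.37 and 10.54. This change was 0.74 (SE 0.10, adjusted p = 1.1e-08, 1.67-fold). In the same comparison set PEG30-FGF21 Q108 at 2.5 mg/kg gave 10.18, 10.13, 10.30, 10.29 and 10.35, all above the vehicle arrays, and a change of 0.35 (adjusted p = 0.016). The doses, schedules and hours after injection of the 2 proteins differ, so their values stand side by side. A second Klf9 probe set gave the same direction in all 19 called comparisons and was itself called in 16, while the third had the same direction in all 19 and was called in only 1.

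Klf6 also rose with WT FGF21 in white fat, in 7 of 18 comparisons (background 1.88% higher), with a median change of 0.38 and 17 of 18 above 0. In EWAT of WT-chow mice at 2 d vehicle arrays read 10.42, 10.49, 10.35, 10.39 and 10.35, and treated arrays 10.85, 10.99, 10.94, 10.99 and 11.05. The groups were well separated, and the change was 0.56 (SE 0.12, adjusted p = 0.00053, 1.48-fold). In IWAT of WT-HFD mice at 5 d vehicle arrays read 12.35, 11.39, 12.08, 11.78 and 11.70, and treated arrays 12.58, 12.50, 11.68, 12.55 and 12.36. The treated array at 11.68 is the one that stood apart, and the groups overlapped through it, for a change of 0.48 (SE 0.12, adjusted p = 0.0081) with it and 0.64 (adjusted p = 9.2e-05) without the 2 IWAT arrays. The call with it was lost without replicate 2, 4 or 5. With PEG30-FGF21 Q108 Klf6 was called in 0 of 36 white fat comparisons (background 1.53% higher).

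In BAT Klf6 was higher with WT FGF21 in 2 of 6 comparisons and lower with PEG30-FGF21 Q108 in 6 of 12, all 6 of them at 5 d. The background for these was 3.98% higher and 5.21% lower. At 2 d in WT-HFD mice vehicle arrays read 10.58, 10.75, 11.16, 10.88 and 10.69, and WT FGF21 arrays 11.48, 11.61, 11.84, 10.71 and 11.20. Of the treated arrays 1 lay within the vehicle range, and the change was 0.56 (SE 0.14, adjusted p = 0.0036). At 5 d in WT-HFD mice vehicle arrays read 11.09, 11.01, 11.04, 10.78 and 10.67, and arrays at 2.5 mg/kg 10.40, 10.25, 10.12, 10.36 and 10.41, a change of -0.61 (SE 0.14, adjusted p = 0.00084, 0.655-fold). At 5 d in db/db-chow mice vehicle arrays read 10.69, 10.48, 10.87, 10.86 and 10.69, and arrays at 0.75 mg/kg 9.72, 10.05, 10.11, 9.99 and 10.12, a change of -0.72 (SE 0.14, adjusted p = 4.7e-05). In both of these comparisons every treated array was below every vehicle array. A second Klf6 probe set had the same direction in all 15 called comparisons and was called in 13.

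**Figure D3:**
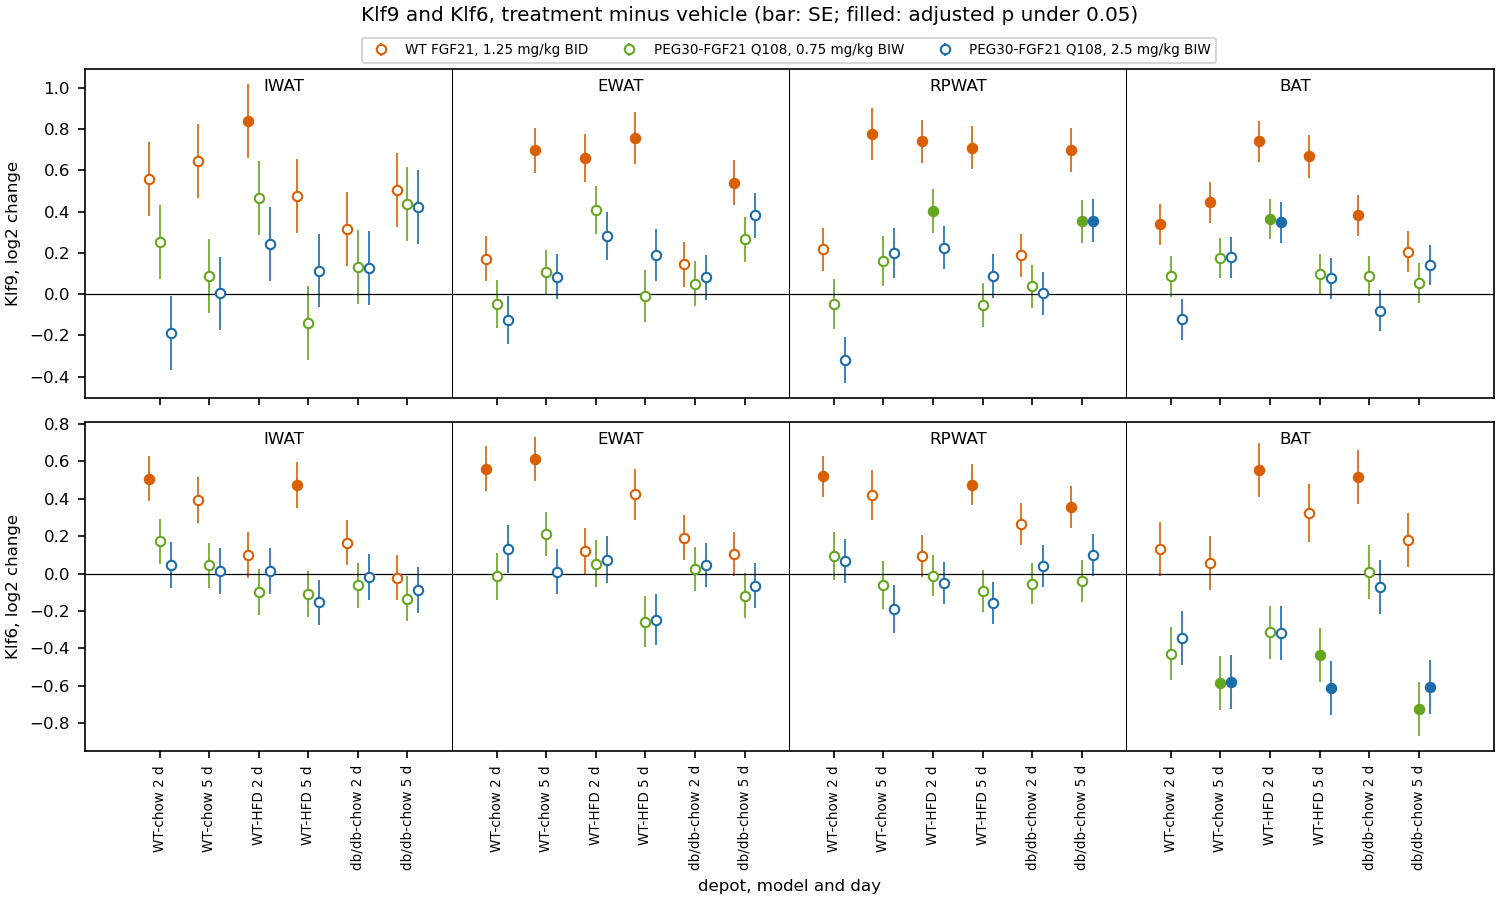
Log2 change of Klf9 and Klf6 against vehicle for each depot, model and day, by treatment, with bars of 1 SE and filled points where the adjusted p passed 0.05. Changes with WT FGF21 lie above 0 for Klf9 in white fat in all 18 comparisons, and Klf6 in BAT lies below 0 with PEG30-FGF21 Q108 at 5 d.

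Klf2 and Klf4, the KLF pair best known from endothelial cells, fell in BAT. All 18 Klf2 changes in BAT were below 0, with a median of -0.86 and 12 called, and 17 of 18 Klf4 changes were below 0, with a median of -0.67 and 13 called. All 12 comparisons in which Klf2 was called were among the 13 in which Klf4 was, which share their control arrays. At 5 d Klf2 was called in 8 of 9 comparisons (median -1.21) and Klf4 in 9 of 9 (median -0.87). At 2 d each was called in 4 of 9, with medians of -0.76 and -0.37. Of all probe sets 7.03% were called lower in BAT at 5 d and 3.18% at 2 d. By model, Klf2 was called in 3 of 6 comparisons in WT-chow (background 3.92% lower), 3 in WT-HFD (5.38%) and 6 in db/db-chow mice (6.02%), and Klf4 in 4, 3 and 6. No difference between models was called for either gene in BAT.

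Klf2 in db/db-chow BAT at 5 d fell with all 3 treatments. Vehicle arrays read 10.21, 11.01, 10.33, 10.66 and 10.82, and WT FGF21 arrays 10.05, 9.29, 9.19, 9.62 and 8.84, a change of -1.21 (SE 0.25, adjusted p = 0.00016, 0.432-fold). At 0.75 mg/kg of PEG30-FGF21 Q108 arrays read 9.12, 8.57, 8.81, 8.28 and 9.10, a change of -1.83 (adjusted p = 4.4e-09, 0.281-fold). At 2.5 mg/kg they read 8.10, 8.29, 8.85, 9.38 and 9.38, a change of -1.81 (adjusted p = 6.7e-09, 0.286-fold). No treated array of these 3 groups reached the vehicle range.

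In BAT of WT-HFD mice at 5 d Klf2 read 10.87, 11.39, 10.71, 10.36 and 10.46 on vehicle. The 4 WT FGF21 arrays read 9.39, 9.25, 9.20 and 9.63, a change of -1.39 (SE 0.26, adjusted p = 5.1e-05). The arrays at 2.5 mg/kg read 9.19, 9.20, 8.64, 9.37 and 9.58, a change of -1.56 (adjusted p = 5.5e-07). Both groups lay wholly below vehicle. At 0.75 mg/kg the arrays read 9.49, 10.26, 9.88, 10.13 and 10.40, 1 of which lay in the vehicle range, and the change of -0.72 (adjusted p = 0.049) was lost without any 1 of 6 arrays, namely treated replicates 1, 3 and 4 and vehicle replicates 1, 2 and 3 (adjusted p 0.068 to 0.22).

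Klf4 in db/db-chow BAT at 5 d read 10.78, 11.40, 11.21, 11.49 and 11.55 on vehicle. WT FGF21 arrays read 11.14, 10.52, 10.54, 10.76 and 10.24, which overlapped vehicle in 1 array, for a change of -0.65 (SE 0.18, adjusted p = 0.0068). At 0.75 mg/kg they read 10.42, 10.28, 10.23, 9.48 and 10.28, a change of -1.15 (adjusted p = 1.7e-07). At 2.5 mg/kg they read 9.51, 9.39, 9.91, 10.41 and 9.87, a change of -1.47 (adjusted p = 8.2e-11, 0.361-fold). Both pegylated groups lay below every vehicle array. In WT-chow BAT at 5 d vehicle arrays read 10.10, 10.36, 10.28, 10.11 and 10.42, and those at 0.75 mg/kg 8.80, 9.35, 9.09, 9.42 and 9.43, a change of -1.04 (adjusted p = 5.1e-06) with no overlap.

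**Figure D4:**
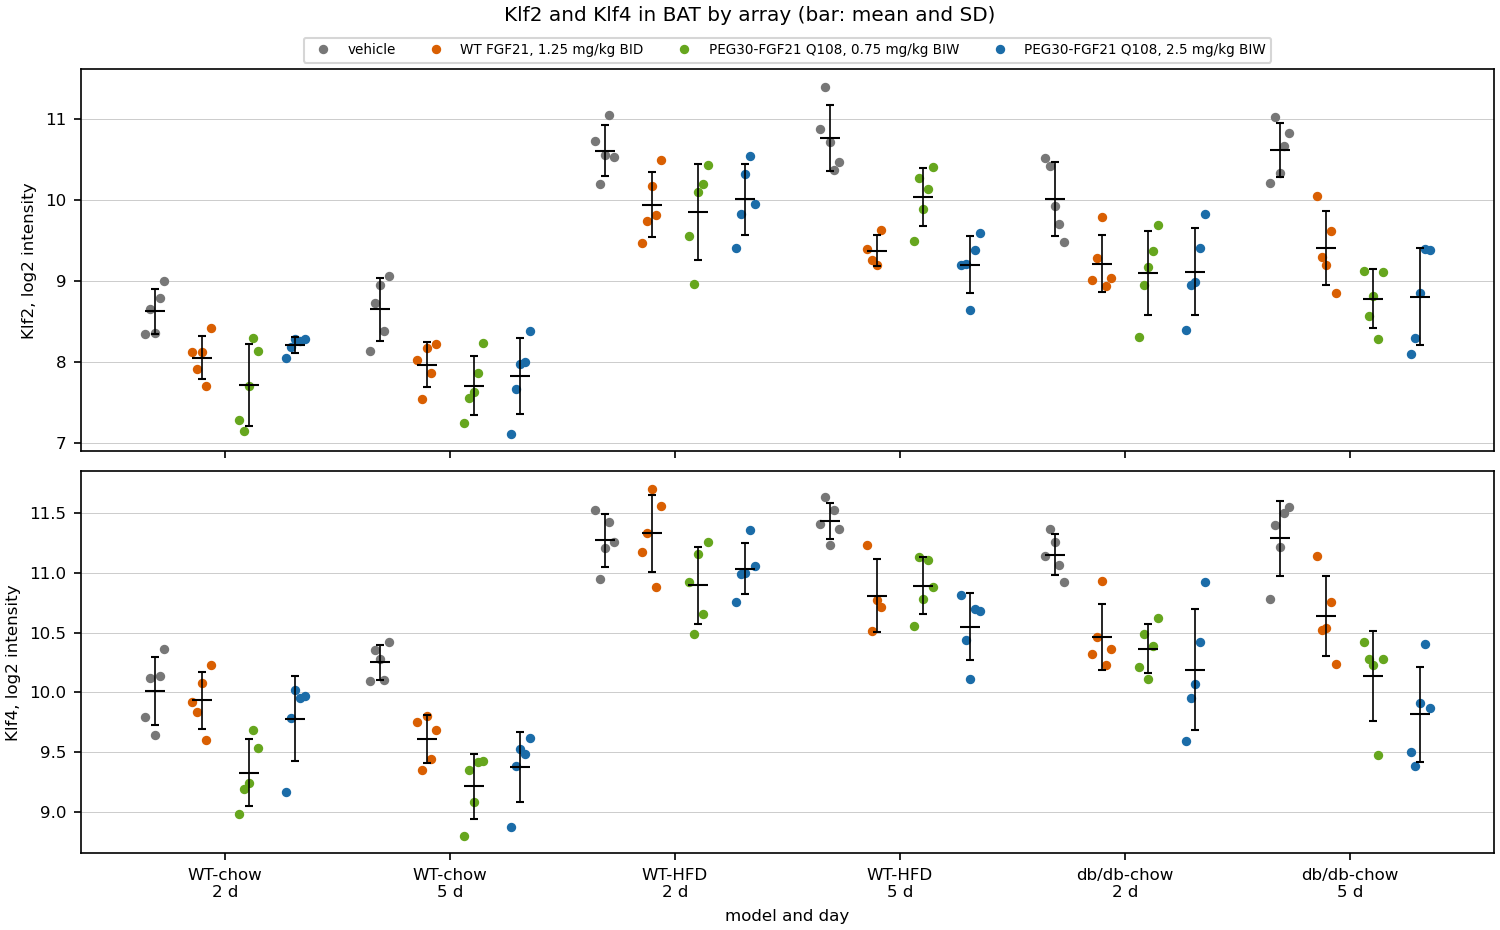
Log2 intensity of Klf2 and Klf4 in BAT, with 1 point per array and the mean ± SD of each group, by model, day and treatment. In db/db-chow mice at 5 d all arrays on PEG30-FGF21 Q108 lie below all vehicle arrays for both genes.

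Because these are whole tissues, fewer cells of a type and less RNA per cell cannot be told apart. The markers of endothelial cells were all measured (10 of 10), and in db/db-chow BAT at 5 d with 2.5 mg/kg 2 of them were higher and 5 lower, among them Pecam1 (-0.31), Tek (-0.29) and Tie1 (-0.45). The summed intensity of the 10 markers was 7497 to 7897 on vehicle, 6291 to 7650 with WT FGF21, 6628 to 7414 at 0.75 mg/kg and 6961 to 7901 at 2.5 mg/kg. In WT-HFD BAT at 5 d, where Klf2 fell by 1.56 at 2.5 mg/kg, 3 endothelial markers were higher and 1 lower, and their sum was 14918 to 17359 against 12340 to 15119 on vehicle. The part of the endothelial markers in the Klf2 and Klf4 changes was not tested in either model.

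White fat held few such changes. Klf2 was lower in 3 of 54 comparisons (background 0.901% lower), all at 2.5 mg/kg of PEG30-FGF21 Q108, with changes of -0.54 in EWAT of WT-HFD mice at 5 d, -0.49 in RPWAT of WT-HFD mice at 5 d and -0.44 in RPWAT of WT-chow mice at 2 d. For RPWAT of WT-HFD mice vehicle arrays read 10.44, 10.15, 10.38, 10.64 and 10.48, and treated arrays 9.95, 10.08, 9.57, 10.03 and 9.98 (SE 0.12, adjusted p = 0.0055). The groups lay next to each other without overlap, and the call was lost without replicate 3. Klf4 was lower in 1 of 54, in RPWAT of WT-chow mice at 2 d on 2.5 mg/kg (-0.37). Without the 2 IWAT arrays that stood apart, Klf2 was also lower in IWAT of WT-HFD mice at 5 d on 2.5 mg/kg (-0.43, adjusted p = 0.029) and Klf4 in WT-chow IWAT after 2 d at that dose (-0.48, adjusted p = 0.012). The dim second probe set of Klf2 had the same direction in 14 of the 15 called comparisons but was called in only 1 of them. Over all 72 comparisons it was called higher in 2 and lower in 1.

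Klf11, which is induced by TGF-beta and represses transcription through Sin3 proteins, fell in BAT at 5 d. It was lower in 6 of 18 BAT comparisons, all 6 at 5 d (background 5.11% lower in BAT and 7.03% at 5 d), with a median of -0.29 over the 18 and 17 of them below 0. In db/db-chow mice at 5 d vehicle arrays read 8.80, 8.25, 8.02, 8.13 and 8.18, and WT FGF21 arrays 7.69, 7.24, 7.18, 7.31 and 7.40, a change of -0.91 (SE 0.15, adjusted p = 2.1e-06). At 0.75 mg/kg they read 6.95, 6.98, 7.16, 7.24 and 6.86, a change of -1.24 (adjusted p = 1.1e-10), and at 2.5 mg/kg 7.36, 7.18, 7.32, 7.28 and 6.75, a change of -1.10 (adjusted p = 6.2e-09). No treated array reached the vehicle range.

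The vehicle groups of Klf11 were not level over time in that model. At 2 d the vehicle arrays of db/db-chow BAT read 8.05, 7.46, 7.64, 7.23 and 7.43, lower than at 5 d by a log2 difference of 0.71 (SE 0.15, adjusted p = 0.0043, and 0.061 without replicate 4). This was the only call when vehicle at 5 d was compared with vehicle at 2 d for the 9 members in all 12 depots and models, against 0.457% of probe sets called in BAT and 1.03% in all depots, and 22 of these comparisons had an unadjusted p under 0.05. The treated arrays at 5 d lay in or below the range of the 2 d vehicle arrays. The other 3 called falls were -0.62 with WT FGF21 and -0.53 at 2.5 mg/kg in WT-HFD mice and -0.45 at 2.5 mg/kg in WT-chow mice. In white fat Klf11 was higher in 2 of 54 comparisons (background 1.64% higher), both in RPWAT of WT-HFD mice at 2 d, with 0.41 on WT FGF21 and 0.42 at 2.5 mg/kg. For the latter vehicle arrays read 8.74, 8.06, 8.38, 8.58 and 8.66, and treated arrays 9.05, 8.92, 8.80, 8.77 and 8.97 (SE 0.10, adjusted p = 0.0084), all above vehicle. Both calls were lost without replicate 2 and when only the arrays of the depot and model or of the groups compared were fitted. That on WT FGF21 was also lost without replicate 1.

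Klf15 rose in BAT, chiefly in WT-HFD mice, where it was higher in all 6 comparisons (background 3.74% higher), with 3 of 6 in WT-chow (4.13%) and 1 of 6 in db/db-chow mice (6.26%). At 2 d in WT-HFD mice vehicle arrays read 10.04, 10.03, 9.25, 9.98 and 10.29. WT FGF21 arrays read 11.03, 11.77, 10.38, 11.37 and 11.35, a change of 1.26 (SE 0.23, adjusted p = 2.3e-05, 2.40-fold). At 0.75 mg/kg arrays read 11.09, 10.64, 11.39, 11.40 and 11.65, a change of 1.31 (adjusted p = 8.2e-05, 2.49-fold). At 2.5 mg/kg they read 10.91, 11.17, 11.35, 11.49 and 11.39, a change of 1.34 (adjusted p = 1.1e-05, 2.54-fold). All treated arrays were above all vehicle arrays, with the lowest WT FGF21 array just above the highest vehicle array.

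At 5 d in WT-HFD BAT the Klf15 changes were 1.08 with WT FGF21 and 0.79 at each dose of the pegylated protein. In WT-chow BAT the called changes were 0.86 (2 d) and 0.84 (5 d) at 0.75 mg/kg and 0.91 (5 d) at 2.5 mg/kg. In db/db-chow BAT at 5 d vehicle arrays read 8.65, 8.75, 8.24, 7.99 and 8.33, and WT FGF21 arrays 7.85, 7.36, 8.05, 7.77 and 8.22, a change of -0.54 that did not pass the test (adjusted p = 0.12). At 2 d in that model the change with WT FGF21 was -0.67 (adjusted p = 0.061), and 3 of the 6 WT FGF21 changes of Klf15 in BAT were below 0. On 2.5 mg/kg at 5 d arrays read 8.78, 9.74, 8.82, 8.87 and 9.62, all above vehicle, a change of 0.78 (adjusted p = 0.0090) that was lost without treated replicate 2 (0.63, adjusted p = 0.056). In RPWAT of WT-chow mice at 2 d Klf15 was lower with WT FGF21. There vehicle arrays read 10.27, 10.04, 10.33, 10.13 and 10.13, and treated arrays 9.46, 9.49, 9.53, 9.57 and 10.004, a change of -0.57 (SE 0.17, adjusted p = 0.040), which was lost without any 1 of replicates 1 to 4. The treated array at 10.004 was nearest to vehicle.

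**Figure D5:**
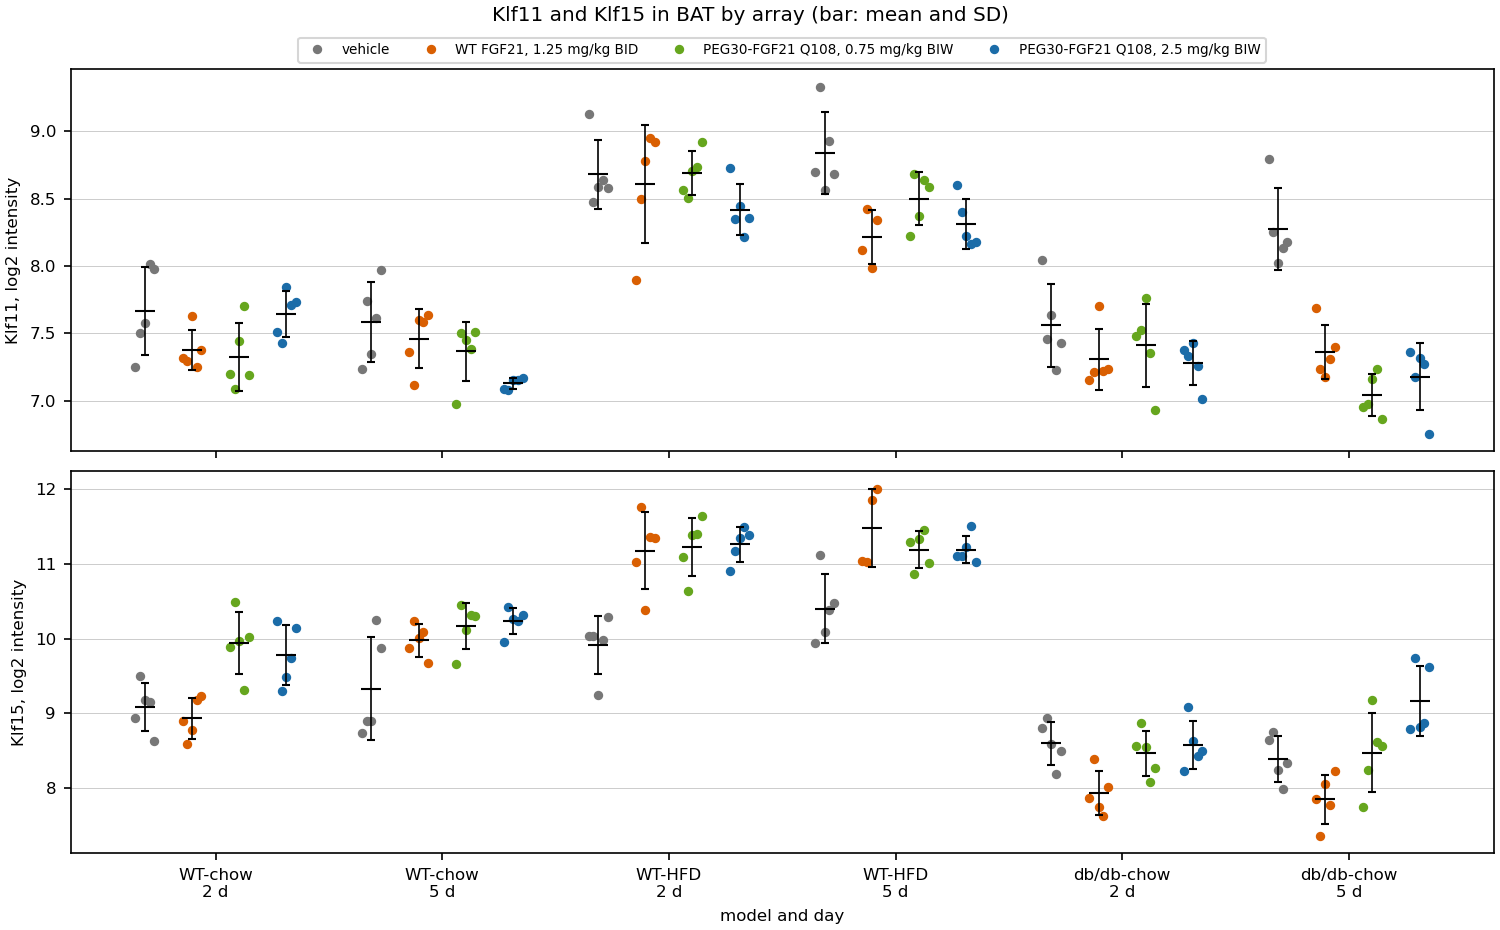
Log2 intensity of Klf11 and Klf15 in BAT, with 1 point per array and the mean ± SD of each group, by model, day and treatment. Klf15 lies above vehicle in all treated groups of WT-HFD mice at 2 d, and Klf11 below vehicle in all treated groups of db/db-chow mice at 5 d.

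The remaining 3 genes moved little. Klf10, an early response gene of TGF-beta, was called in 1 of 18 BAT comparisons and 0 of 54 in white fat. That BAT count is near the 4.71% of all probe sets called higher there. In BAT of WT-HFD mice at 5 d its vehicle arrays read 10.73, 11.01, 10.86, 10.77 and 10.73, and the 4 WT FGF21 arrays 12.04, 11.72, 11.34 and 11.38, a change of 0.80 (SE 0.15, adjusted p = 4.4e-05, 1.74-fold) with no overlap. Klf3 was lower in db/db-chow BAT at 2.5 mg/kg on both days, its only 2 calls in 18 BAT comparisons (background 5.11% lower). At 2 d vehicle arrays read 9.90, 10.30, 10.22, 9.56 and 10.04, and treated arrays 9.34, 9.49, 9.64, 9.79 and 9.42, which overlapped, for a change of -0.47 (SE 0.11, adjusted p = 0.0010). At 5 d the change was -0.33. The other probe set of Klf3 was called in both of these comparisons and in 8 of all 72, of which 7 were lower. Of all probe sets 9.82% were called in BAT and 2.55% in white fat.

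Klf5 was not called anywhere, with either of its probe sets. Among its larger changes was that in RPWAT of WT-chow mice at 5 d, where the 3 vehicle arrays read 9.22, 8.89 and 8.41 and the arrays at 0.75 mg/kg 8.85, 7.97, 8.31, 7.49 and 8.07. The groups overlapped, and the difference of -0.70 had an SE of 0.32 (adjusted p = 0.25).

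The difference between the 2 doses of PEG30-FGF21 Q108 was called for no member in 216 comparisons (limma), while 23 had an unadjusted p under 0.05, against 0.0792% of all probe sets called. The lowest adjusted p was 0.098, for Klf4 in RPWAT of WT-chow mice at 5 d, with 2.5 mg/kg lower than 0.75 mg/kg by a log2 difference of -0.29. Klf2 in BAT of WT-HFD mice at 5 d differed by -0.84 (adjusted p = 0.14) and Klf15 in BAT of db/db-chow mice at 5 d by 0.69 (adjusted p = 0.38).

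The treatment change at 5 d minus that at 2 d was called for 3 of 324 (0.514% of probe sets, and 1.27% in BAT), and 57 had an unadjusted p under 0.05. All 3 were in db/db-chow BAT, namely Klf11 at 0.75 mg/kg (-1.09, SE 0.21, adjusted p = 0.0022), Klf11 at 2.5 mg/kg (-0.82, adjusted p = 0.025) and Klf6 at 0.75 mg/kg (-0.73, SE 0.20, adjusted p = 0.037). The Klf11 call at 2.5 mg/kg was lost without replicate 2, 4 or 5 and the Klf6 call without any 1 of replicates 1 to 5 (adjusted p up to 0.13 for each). For Klf11 the shift of the vehicle groups described above enters these differences. Klf2 and Klf4 had larger medians at 5 d than at 2 d, but their day difference was called in no comparison.

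Differences between models in the treatment change were called for 11 of 432 (0.790% of probe sets, and 2.20% in BAT), with 74 at an unadjusted p under 0.05. In BAT the change of Klf15 with WT FGF21 at 2 d was greater in WT-HFD than in WT-chow mice by 1.41 (adjusted p = 0.0093). At 5 d the change of Klf15 with WT FGF21 was lower in db/db-chow than in WT-chow mice by a difference of -1.18 (adjusted p = 0.016). Klf11 in BAT at 5 d was also lower in db/db-chow than in WT-chow mice under all 3 treatments, by differences of -0.79, -1.02 and -0.64 (adjusted p = 0.014, 0.00040 and 0.046). The call at 2.5 mg/kg was lost without any 1 of replicates 1 to 5, that with WT FGF21 without replicate 3 or 4, and the Klf15 calls without replicate 2, 3 or 4 (WT-HFD) and 1, 2 or 3 (db/db-chow). The base of the Klf11 differences is the 5 d vehicle group, which in db/db-chow BAT was 0.71 above that at 2 d. The other 6 lay in RPWAT and EWAT at 2 d between WT-HFD and WT-chow mice, and were differences of 0.52 (Klf9), 0.53 (Klf4), 0.61, 0.64 and 0.73 (Klf11) and 0.93 (Klf15).

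The change in BAT minus the change in IWAT was called in 29 comparisons of a member, 6 higher and 23 lower, against 3.49% of probe sets (1.16% higher and 2.33% lower). The higher ones were 5 of Klf15, from 0.87 to 1.41, and 1 of Klf10 (0.76). The lower ones were of Klf2, Klf4, Klf6, Klf11 and Klf3. In db/db-chow mice at 5 d the Klf2 difference was -1.31 with WT FGF21, -1.73 at 0.75 mg/kg and -1.68 at 2.5 mg/kg. The Klf4 difference at 2.5 mg/kg was -1.27 and that of Klf11 -1.22. RPWAT and IWAT differed in 1 comparison (Klf11 in WT-HFD mice with WT FGF21 at 5 d, 0.62, adjusted p = 0.044, 1.39% of probe sets), which was lost in 6 of 8 other settings (without the 2 IWAT arrays, with each array centred on its median, and without replicate 1, 3, 4 or 5; highest adjusted p 0.93), and EWAT and IWAT in none (1.69% of probe sets). Over the 486 depot comparisons 68 had an unadjusted p under 0.05. Klf9 was called in none of them. The 4 depots of a group came from the same mice, which this fit does not model. With arrays of the same replicate number joined as a block (correlation 0.042), all 30 calls held, though the labels do not say that the number marks a mouse. Without the 2 IWAT arrays that stood apart, 24 of the 30 depot calls held. The 6 lost were Klf4 in WT-HFD mice with WT FGF21 at 5 d (-0.44, adjusted p = 0.26), Klf2 in db/db-chow mice at 2 d at 0.75 mg/kg (-0.63, adjusted p = 0.27) and 2.5 mg/kg (-0.71, adjusted p = 0.11), Klf3 (-0.45, adjusted p = 0.14) and Klf11 (-0.34, adjusted p = 0.48) in the last of these groups, and the RPWAT difference of Klf11 (0.54, adjusted p = 0.26).

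The immediate early factors (16 of 16 measured) were counted beside Klf6 and Klf2. With WT FGF21 they were higher in 25.0% and lower in 2.43% of gene comparisons in white fat, against 1.88% and 1.28% of all probe sets. In BAT with PEG30-FGF21 Q108 they were higher in 0.521% and lower in 38.5%, against 5.08% and 5.21%. In BAT of WT-HFD mice on WT FGF21 at 5 d 10 were higher and 1 lower, with a median change of 1.21, and Egr2, a zinc finger factor, rose by 3.40 (adjusted p = 1.1e-12). In db/db-chow BAT at 5 d on 2.5 mg/kg 14 of 16 were lower, with a median of -1.68, among them Fosb (-5.30), Btg2 (-1.84) and Zfp36 (-1.33, adjusted p = 1.6e-09), which destabilizes mRNA.

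Glucocorticoid-induced genes (11 of 12 measured) were counted beside Klf9. In white fat with WT FGF21 they were higher in 24.7% and lower in 1.52% of gene comparisons (background 1.88% and 1.28%). In BAT they were higher in 27.3% and lower in 0 of 66 (background 3.98% higher). In BAT of WT-HFD mice at 2 d 7 of 11 were higher (median 0.59), led by Zbtb16 (3.38), Fkbp5 (2.56, adjusted p = 5.7e-09), the FK506-binding chaperone, and the metallothionein Mt2 (2.30). In EWAT of WT-HFD mice on WT FGF21 7 were higher at 2 d, with a median of 0.73. With PEG30-FGF21 Q108 the share was 4.80% higher and 6.31% lower in white fat (background 1.53% higher).

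Genes of amino acid catabolism that are linked to Klf15 (8 of 9 measured) were higher in 20.8% and lower in 2.78% of gene comparisons in BAT, against 4.71% and 5.11% of all probe sets. In white fat the shares were 6.25% and 5.79% (background 1.64% and 0.901%). Got1, an aspartate aminotransferase, was higher in all 12 BAT comparisons of the pegylated protein and in 3 of 6 of WT FGF21. In WT-HFD BAT at 2 d on 2.5 mg/kg, where Klf15 rose by 1.34, Got1 rose by 1.21 (adjusted p = 1.2e-07), Bcat2, a branched-chain aminotransferase, by 0.59 (adjusted p = 0.00077) and Prodh, proline dehydrogenase, by 0.75 (adjusted p = 0.014). The other 5 measured genes were not called there, and the median of the 8 was 0.14. In white fat Prodh went mostly the other way (background 0.901% lower). It was lower in 5 and higher in 1 of 18 comparisons of WT FGF21 there. With the pegylated protein it was lower in 15 and higher in 3 of 36.

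Genes of TGF-beta and SMAD feedback (9 of 10 measured) were lower in 24.1% and higher in 3.09% of BAT comparisons. Of all probe sets 5.11% were lower and 4.71% higher there. In db/db-chow BAT at 5 d on 0.75 mg/kg 7 of 9 were lower, with a median of -0.52. On 2.5 mg/kg 5 were lower, among them Id3 (-1.44), Id1 (-0.96) and Bambi (-0.88). The other KLF and SP factors (13 of 14 measured) were higher in 2.56% and lower in 9.83% in BAT, with the same background. Klf16 was lower in 9 of 12 BAT comparisons of the pegylated protein (background 5.21% lower). In db/db-chow BAT at 5 d on 2.5 mg/kg Klf16 (-0.89) and Sp4 (-0.74) were lower. In white fat the other KLF and SP factors were higher in 0.427% and lower in 1.57% (background 1.64% and 0.901%).

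The adipogenic factors and adipocyte targets (12 of 12 measured) were higher in 12% and lower in 14.4% in BAT (background 4.71% and 5.11%). In white fat they were higher in 6.33% and lower in 3.70% (background 1.64% and 0.901%). Pparg, the central factor of adipogenesis, was higher in 10 of 18 white fat comparisons of WT FGF21 (background 1.88% higher). With the pegylated protein it was higher in 11 of 36 (background 1.53%). In BAT Pparg was higher in 1 of 6 comparisons of WT FGF21 and lower in 1 of 12 of the pegylated protein. Other factors of the list went lower. In BAT Cebpa was lower in 5 of 6 comparisons of WT FGF21 and 4 of 12 of the pegylated protein, and higher in 0. In white fat Cebpb was lower in 7 of 36 comparisons of the pegylated protein and higher in 0. Clock genes (13 of 14) were higher in 20.5% and lower in 8.97% with WT FGF21 in BAT (background 3.98% higher). With PEG30-FGF21 Q108 in BAT they were higher in 3.21% and lower in 16.7% (background 5.08% and 5.21%). Genes of FGF receptor feedback (10 of 10) were higher in 51.1% of BAT comparisons and 28.0% of those in white fat (background 4.71% and 1.64%). Dusp6 changed by 0.82 in WT-HFD BAT on WT FGF21 at 5 d. These lists were chosen with earlier results of the same arrays known.

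Markers of other cell types moved in BAT beside the KLF genes. Of all probe sets 4.71% were called higher and 5.11% lower there. Preadipocyte and fibroblast markers (6 of 6 measured) were lower in 24.1% and higher in none, macrophage markers (6 of 8) lower in 13.0% and higher in 0.926%, endothelial markers lower in 15.6% and higher in 12.8%, and brown adipocyte markers (6 of 6) higher in 41.7% and lower in 2.78%. General adipocyte markers (6 of 7) were higher in 9.26% and lower in 13.9%. Markers of smooth muscle (5 of 5), skeletal muscle (7 of 7), lymphocytes (5 of 7), epididymis and testis (6 of 6), kidney and adrenal (6 of 6), epithelium (4 of 5) and red blood cells (2 of 4) were higher in at most 5.56% of BAT comparisons, and none of these lists had more than 2 lower calls there. In white fat endothelial markers were lower in 17.8% and higher in 0 of 180 comparisons with WT FGF21 (background 1.28% lower). Klf2 and Klf4 were not called in these comparisons. In the same comparisons smooth muscle markers were higher in 16.7% and lower in 1.11% (Tagln higher in 9 of 18, Acta2 higher in 6 and lower in 1) and macrophage markers higher in 8.33% and lower in none, against 1.88% of probe sets higher. The part of these markers in the KLF changes was not tested.

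The genes whose pattern was most like each member were named by Pearson r over the 96 group means, each taken minus the mean of its depot and model, as a description with no test. The groups of a depot and model share their arrays' scale and the treatments. Klf2 was most like Klf4 (r = 0.84), and Klf4 most like Klf2. Next to Klf4 were Zyx (0.79) and Tmem181 (0.79), and next to Klf2 D730003I15Rik (0.81) and Gdpd5 (0.77). Klf6 was most like Zfp36 (0.87), Ndel1 (0.85) and Egr2 (0.84). Klf9 was most like a probe set named 2310051E17Rik (0.93), which RefSeq lists as an older name of Klf9 itself, followed by Fkbp5 (0.81) and Map3k6 (0.79). Klf15 was most like Mcee (0.67), Hsd17b14 (0.66) and Agpat6 (0.64), and Klf11 most like Rdm1 (0.71), Blcap (0.70) and Maf1 (0.70). Klf5 was most like Ank3 and Perp (0.67 each) and Serinc2 (0.64). The likeness was lower for Klf3 (Otud4, 0.58, Pde4b, 0.55, and Nrarp, 0.52) and Klf10 (Riok2, Nab2 and Tgif1, 0.54 each).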

How the data were processed

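RNA of single fat depots was measured on custom Affymetrix arrays, each labelled with its depot, model, treatment, day and replicate number. The authors ran RMA in Rosetta Resolver, and deposited 1 table of linear intensity values (the version is not given in the sources used here), of which 0 sample columns were left unmapped. Log2 of the deposited intensity was taken here without further scaling. In each depot, 24 group means were fitted to 43681 probe sets with limma 3.58.1 (R 4.3.3, eBayes with trend), and p-values were adjusted by Benjamini-Hochberg within each comparison, with calls at an adjusted p under 0.05. Depot differences came from 1 fit of all 96 groups. By the study's methods the 4 depots were taken from the animals of each treatment group, so depots share mice, but the labels do not say which arrays share a mouse, and this fit treated them as separate samples. Each replicate of a group is 1 animal per the study's methods. Alternatives were other normalizations, weights, fits and thresholds, and leaving out replicates. The platform annotation gave 1 symbol to 30342 probe sets and none to 13339. The study's methods used ANOVA, run here as an alternative.

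All 9 members are named. Of a list, up to 3 genes with the smallest adjusted p in the comparison described are named, and for each member the 3 most alike genes. Some further list genes are named with their counts of calls. The members and lists were chosen with earlier results of these data known. The fits were tested on simulated data. Upstream sequences came from RefSeq and figures were drawn with matplotlib 3.10.9.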

Additional observations from a re-analysis of the deposited data

Results flagged for a closer look

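Of 58 groups whose arrays are printed, 5 held 1 array far from the others, where chance alone gives about 1 in 20 groups. These were Klf6 in IWAT of WT-HFD mice on WT FGF21 at 5 d (11.68, in the array that stood apart), Klf2 in RPWAT of WT-HFD mice at 2.5 mg/kg at 5 d (9.57), Klf4 in BAT of db/db-chow mice at 0.75 mg/kg at 5 d (9.48), Klf15 in BAT of WT-HFD mice on vehicle at 2 d (9.25) and Klf15 in RPWAT of WT-chow mice on WT FGF21 at 2 d (10.004).

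The treatment change differed between days in 3 comparisons, all in BAT of db/db-chow mice, by -0.73 for Klf6 and -1.09 for Klf11 at 0.75 mg/kg and by -0.82 for Klf11 at 2.5 mg/kg. It differed between models in 11. Between WT-HFD and WT-chow mice at 2 d with WT FGF21 these were Klf11 in EWAT (0.73), Klf9 (0.52), Klf11 (0.64) and Klf15 (0.93) in RPWAT and Klf15 in BAT (1.41), and at 2.5 mg/kg Klf4 (0.53) and Klf11 (0.61) in RPWAT. Between db/db-chow and WT-chow mice in BAT at 5 d they were Klf11 (-0.79) and Klf15 (-1.18) with WT FGF21, and Klf11 at 0.75 mg/kg (-1.02) and 2.5 mg/kg (-0.64).

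The change differed between depots in 30 comparisons, of which 29 set BAT against IWAT. In WT-chow mice at 5 d these were Klf4 (-0.91), Klf6 (-0.63) and Klf15 (0.87) at 0.75 mg/kg and Klf4 (-0.85) and Klf6 (-0.59) at 2.5 mg/kg. In WT-HFD mice they were Klf15 with WT FGF21 at 2 d (1.06), Klf4 (-0.79), Klf10 (0.76) and Klf15 (1.41) with WT FGF21 at 5 d, Klf15 at 0.75 mg/kg at 5 d (1.15), Klf15 at 2.5 mg/kg at 2 d (1.12), and Klf2 (-1.13) and Klf4 (-0.85) at 2.5 mg/kg at 5 d. In db/db-chow mice with WT FGF21 they were Klf4 at 2 d (-0.92) and Klf2 (-1.31) and Klf11 (-0.83) at 5 d. At 0.75 mg/kg in that model they were Klf2 (-0.87) and Klf4 (-0.90) at 2 d and Klf2 (-1.73), Klf4 (-0.98), Klf6 (-0.59) and Klf11 (-1.16) at 5 d. At 2.5 mg/kg they were Klf2 (-0.94), Klf3 (-0.61), Klf4 (-1.11) and Klf11 (-0.53) at 2 d and Klf2 (-1.68), Klf4 (-1.27) and Klf11 (-1.22) at 5 d. The remaining one was RPWAT against IWAT for Klf11 in WT-HFD mice with WT FGF21 at 5 d (0.62). Without the 2 IWAT arrays that stood apart, 6 of the 30 were lost, namely that one, Klf4 with WT FGF21 at 5 d in WT-HFD mice, and in db/db-chow mice at 2 d Klf2 at both doses and Klf3 and Klf11 at 2.5 mg/kg. The last was also lost without replicate 1, 2 or 4.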

How the results depend on the processing

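No call of a member changed direction under any alternative. Of the 85 treatment calls 25 held under all of them, 31 were lost under 1 to 3 and 29 under more than 3. All alternatives kept 1 of 11 model differences (6 lost under more than 3), 1 of 3 day differences (1), 12 of 30 depot differences (6) and 0 of 1 vehicle day differences (0). The calls in IWAT (3 in all) became 11 with array quality weights, 8 without the 2 arrays that stood apart, 7 when only the 2 groups compared were fitted, 1 by the methods' ANOVA after Benjamini-Hochberg and 18 by that ANOVA at its unadjusted threshold and fold. The 7 in EWAT became 11 with array weights, 12 with only the arrays of the depot and model, and 2 and 25 by the ANOVA. The 16 in RPWAT became 9 when only the groups compared were fitted, 9 at an adjusted p under 0.01, and 3 and 27 by the ANOVA. The 59 in BAT became 23 by the ANOVA after adjustment. Leaving out 1 replicate number gave 1 to 6 in IWAT, 5 to 9 in EWAT, 9 to 16 in RPWAT and 43 to 51 in BAT, 0 to 1 for dose, 1 to 5 for day, 2 to 10 for model, 0 to 3 for the vehicle days and 20 to 26 for depot. The 0 members higher in BAT than in IWAT on vehicle became 3 after quantile normalization over all arrays and 6 above the array median. The ANOVA and the fits on fewer arrays estimate the spread from fewer samples; otherwise the cause was not tested.

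Within a depot, same-numbered replicates of different treatment groups did not deviate together, with median correlations from -0.041 to 0.014. These groups are different mice, so the check cannot tell whether a number marks the same mouse across depots. With the replicate block the calls were 3 in IWAT, 6 in EWAT, 12 in RPWAT and 64 in BAT, and 0 for dose, 3 for day, 11 for model and 33 for depot.

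With single arrays left out of 10 BAT comparisons, 30 of 44 calls held without any 1 array. Besides the losses of Klf2 and Klf15 given in the report, at 0.75 mg/kg in WT-HFD mice at 5 d Klf4 was lost without treated replicate 1, 3 or 5 or vehicle replicate 1, 2 or 4 (adjusted p 0.054 to 0.14), Klf6 without treated or vehicle replicate 1, 2 or 3 (0.068 to 0.15) and Klf15 without vehicle replicate 1 or 3 (0.054 to 0.068). In WT-HFD mice at 5 d Klf4 with WT FGF21 was lost without treated or vehicle replicate 2 (0.055 to 0.10) and Klf11 at 2.5 mg/kg without vehicle replicate 2 (0.079). Klf2 with WT FGF21 at 2 d in db/db-chow mice was lost without treated replicate 1, 4 or 5 or vehicle replicate 1 or 2 (0.079 to 0.14), Klf6 there without treated replicate 2 or 3 (0.054 to 0.066), and Klf3 at 2.5 mg/kg at 5 d without treated replicate 2 or 5 or vehicle replicate 4 (0.058 to 0.077). In WT-chow mice at 0.75 mg/kg at 2 d Klf2 was lost without treated replicate 1 or 2 or vehicle replicate 5 (0.054 to 0.075) and Klf15 without treated replicate 2 or vehicle replicate 5 (0.058 to 0.068), and at 2.5 mg/kg at 5 d Klf2 without treated replicate 1 or vehicle replicate 5 (0.055 to 0.091) and Klf11 without treated replicate 1 or 2 or vehicle replicate 2 or 5 (0.050 to 0.14).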
